A study of Mus musculus with 20 samples.

Results

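The CD122+T-bet- agonist-selected IELPs of the TBGR mouse are wells of 2 CEL-Seq2 libraries that the deposited description of each library assigns to CD122+T-bet- cells. A well counted as a member if its transcripts, without mitochondrial genes and spike-ins, summed to at least 2000. This held for 94 of 96 wells in library 1 and 92 of 96 in library 2, together 186, out of 1920 wells with a cell in 20 libraries of the whole series, and the 3 other sorted populations of the same mouse, with 174 (CD122-T-bet-), 171 (T-bet int) and 147 cells (T-bet high, like T-bet int CD122+), served as the comparison. IELPs are thymic precursors of intestinal intraepithelial lymphocytes, taken here from thymus after removal of CD4+ and CD8+ cells with antibodies and Dynabeads, and sorted by CD122 and by the reporter of T-bet. The TBGR mouse, wild type and 4 weeks old, carries a transgene on a C57BL/6 background that drives the fluorescent protein ZsGreen from Tbx21, the gene of T-bet. A second mouse, TBGR C-myc fl/fl, has the same reporter, both C-myc alleles flanked by loxP sites, and was 2 weeks old. In the paper the sorted cells are TCRαβ+ and NK1.1-. The design text of the repository calls them NK1.1+, and here the paper is followed.

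The paper writes of a TBGR mouse in its figure legend and of TBGR mice in its text, so the number of animals is not settled. The cells of each genotype are treated as those of 1 mouse here, and each TBGR library holds 1 sorted population. A difference between populations and one between libraries therefore cannot be told apart in this mouse, and populations were described without a test. The 2 libraries of a population share no cell barcode, while libraries of the same number in different populations carry the same 96 barcodes.

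Thymocytes that bind self-ligands strongly can be diverted rather than deleted, which is called agonist selection. Such cells switch on factors of strong T cell receptor signalling, among them the NR4A and EGR families, Helios and the inhibitory receptor PD-1. IELPs then acquire CD122, the receptor chain shared by IL-2 and IL-15, and IL-15 together with T-bet later brings NK receptors, cytotoxic granules and exit from the thymus.

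The lowest passing well held 2271 transcripts in library 1 and 2170 in library 2, and the highest well below the limit held 883 and 1936. The median was 7076 and 7073 transcripts per cell, the upper quartile 10027 and 8390 and the highest cell 23258 and 25152. Summed over cells, library 1 held 775264 transcripts of 13896 genes and library 2 held 693697 of 14012. The median cell showed 2593 and 2580 genes, or 1135 and 1134 once each cell had been thinned to 2000 transcripts. Barcodes without a cell held 0.422% and 0.55% of transcripts, against 4.16% in T-bet high library 2, which has 55 passing cells.

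A single predicted gene, Gm10800, took up a large and uneven part of these sums. It made up 12% and 13.8% of transcripts in the population, 21.3% and 29.4% in CD122-T-bet- cells, 8.42% and 7.17% in T-bet int cells, and 7.03% and 14.1% in T-bet high cells. The paper leaves out genes that correlate with it or with Kcnq1ot1, its marker of low-quality cells, and also removes cells rich in Kcnq1ot1 transcripts. Such cells were not removed here. A high share of Gm10800 lowers the per-million level (CPM) of every other gene. Ribosomal protein genes took 10.9% and 10.4% here, 8.07% and 6.86% in CD122-T-bet- cells and between 13.8% and 14.6% in the 4 T-bet int and T-bet high libraries. The part of these shares in the ratios given next was not tested one by one, and counts with Gm10800 and 4 other genes of a list for low-quality cells left out of the total are given with the comparisons.

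The 6 marker genes of the population were present in both libraries. Ikzf2, which encodes Helios, stood at 1232 and 1469 CPM in libraries 1 and 2, against 254 and 427 in CD122-T-bet-, 1058 and 1058 in T-bet int and 91.2 and 94.2 in T-bet high cells. Id3, an inhibitor of E proteins, stood at 528 and 402 CPM, against 128 and 121, 329 and 248, and 8.49 and 4.28 in the same order. Pdcd1, which encodes PD-1, stood at 245 and 254 CPM, against 80.6 and 50.3, 124 and 94.9, and 6.36 and 12.9. For these 3 genes both libraries of the population lay above all 6 libraries of the others. Nr4a2, an orphan nuclear receptor of the NR4A family, stood at 231 and 365 CPM, against 55.8 and 94.6, about 190 and 157, and 10.6 and 8.57. Klrb1a, an NK receptor of the NKR-P1 family, stood at 130 and 112 CPM, at 0 and 0 in CD122-T-bet-, at 141 and 128 in T-bet int and at 2.12 and 0 in T-bet high cells. Il2rb, the CD122 gene, stood at 289 and 247 CPM, against 12.4 and 2.01 in CD122-T-bet- cells, 355 and 443 in T-bet int and 554 and 437 in T-bet high cells. Since CD122 and T-bet set the gates, the levels of Il2rb and of Tbx21, which had 2 transcripts in 1 cell of the population, show only that sort and transcripts go together.

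Genes were called where they had at least 100 transcripts in either population, differed at least 2-fold and had the libraries of both populations apart. All 6 markers were called above CD122-T-bet- cells, where 11.1% of the genes considered were. The markers were chosen with earlier results of these data known, and Il2rb is the gene of the gate, so these counts are no independent evidence. Some markers met the minimum only through the population, such as Klrb1a, with 179 transcripts against 0 in CD122-T-bet- cells. Of the 6, only Pdcd1 was called above T-bet int cells, at a log2 ratio of 1.18 (95% interval 0.90 to 1.47), against 2.78% of all genes, and 5 were called above T-bet high cells, against 10.5%. Il2rb was the marker not called there. Over T-bet high cells Ikzf2 had a log2 ratio of 3.85 (3.51 to 4.24), Nr4a2 4.79 (3.83 to 6.21) and Id3 5.91 (4.82 to 7.67), while Klrb1a, with 1 transcript in those cells, had 5.84 (3.93 to 11.74). Klrb1a was at least 39.8-fold higher than in CD122-T-bet- cells, with the floor set at 3 counts over the group. Without library 2 of the T-bet int cells, Pdcd1 was no longer called over those cells. Intervals cover counting error only.

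The members also carry the markers together in single cells. With all transcripts, 161 of 186 cells (86.6%) had at least 3 of the 6 markers, 32 cells (17.2%) had all 6 and 2 cells had none. After thinning to 2000 transcripts, at least 3 markers were seen in 48.9% of the cells (95% interval 41.5 to 56.3), in 4.6% of CD122-T-bet- cells, in 43.3% (35.7 to 51.1) of T-bet int cells and in 0 of 147 T-bet high cells, which allows up to 2.48%. Without Il2rb, the gene of the gate, an alternative chosen after seeing the data, at least 3 of 5 markers were seen in 36.6% (29.6 to 43.9), 4.6% (2.01 to 8.86), 26.9% (20.4 to 34.2) and 0% of the cells in the same order. These intervals count cells and not mice or libraries.

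**Figure D1:**
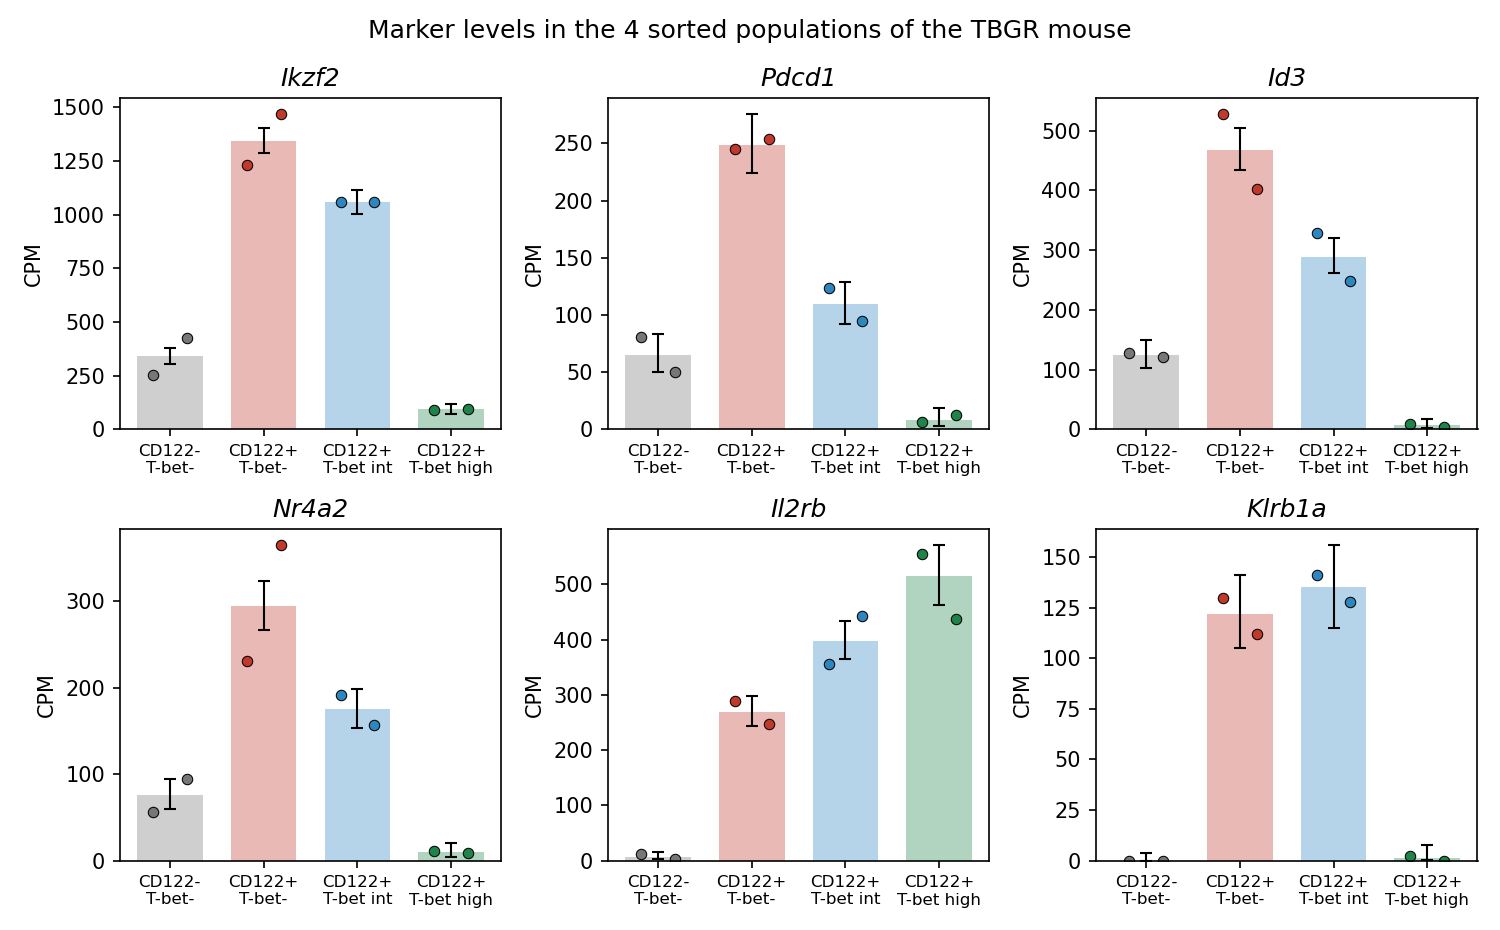
Levels of the 6 markers in CPM on a linear axis in the 4 sorted populations of the TBGR mouse. Bars are both libraries together, points the single libraries and lines 95% Poisson intervals. Both libraries of CD122+T-bet- cells lie above all other libraries for Ikzf2, Id3, Pdcd1 and Nr4a2, and not for Il2rb and Klrb1a.

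The promoters of 2 markers are shown because PD-1 and Id3 transcripts stood highest together in these cells and both genes are known to respond to T cell receptor signals. They are taken from RefSeq (build GRCm38.p6), run from 250 bases before to 50 after the start of the gene and are written 5′ to 3′ on the strand of the gene. The promoter of Pdcd1 lies on the minus strand at chr1:94052504-94052803 and that of Id3 on the plus strand at chr4:136143572-136143871.
Pdcd1: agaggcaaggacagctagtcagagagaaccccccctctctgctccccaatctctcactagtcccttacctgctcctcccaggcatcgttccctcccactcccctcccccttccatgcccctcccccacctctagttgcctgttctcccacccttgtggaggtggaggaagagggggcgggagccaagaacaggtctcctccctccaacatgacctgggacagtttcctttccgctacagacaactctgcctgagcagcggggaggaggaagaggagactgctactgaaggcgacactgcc
Id3: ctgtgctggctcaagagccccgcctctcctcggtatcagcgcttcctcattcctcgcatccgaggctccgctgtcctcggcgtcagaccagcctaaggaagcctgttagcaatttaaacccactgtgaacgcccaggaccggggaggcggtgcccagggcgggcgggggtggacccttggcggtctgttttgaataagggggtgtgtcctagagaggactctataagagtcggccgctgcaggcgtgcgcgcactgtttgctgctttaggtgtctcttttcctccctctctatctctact
Both were searched on both strands for AAAGGTCA, the element that NR4A factors bind as monomers (TGACCTTT on the other strand), and for CAGGTG, an E-box that E proteins bind (CACCTG on the other strand). Neither promoter holds either motif, so no letters are in capitals, and this says only that these letters are not in this window. Of 32851 promoters in the table, 495 (1.51%) hold the first motif and 6640 (20.2%) the second. The G and C content is 60.7% for Pdcd1 and 60% for Id3. Ikzf2 has no entry.

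Across genes, the population stood closest to T-bet int cells. Against CD122-T-bet- cells 294 of 2651 genes considered were called above and 69 (2.60%) below. Against T-bet int cells 78 of 2807 were above and 68 (2.42%) below, and against T-bet high cells 283 of 2684 were above and 161 (6%) below. The median log2 ratio of the genes considered was 0.34 against CD122-T-bet- cells, -0.07 against T-bet int and 0.15 against T-bet high cells. Taken relative to these medians, the counts above and below were 162 and 123, 94 and 54, and 220 and 194. The surplus of genes above CD122-T-bet- cells thus shrank with the shift of all genes, and with the 5 genes of the list for low-quality cells left out of the total, an alternative chosen after seeing the data, it was about 190 above and 108 below. That alternative gave 96 above and 50 below against T-bet int cells, and 310 above and 152 below against T-bet high cells, so there the surplus grew. Leaving ribosomal protein genes out of the total instead gave 63 above and 85 below against T-bet int cells, so the balance turned. It gave 325 above and 64 below against CD122-T-bet- cells, and 256 above and 175 below against T-bet high cells.

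The counts rest on both libraries of the population. Without its library 1, 113 genes were called above CD122-T-bet-, 33 above T-bet int and 102 above T-bet high cells, and 111 below T-bet int cells. Without its library 2, 161, 23 and 151 genes were called above in that order, and 67 below T-bet int cells. Leaving out library 1 of CD122-T-bet- cells raised the genes above them to 448, and leaving out library 1 of T-bet high cells gave 439 above and 100 below. Without library 1 or library 2 of T-bet int cells, 41 and 35 genes were below them.

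A small set of genes marked the population on its own. Of 2883 genes considered, 15 (0.520%) were called above all 3 other populations and 2 (0.0694%) below all 3, and 13 of the 15 are named genes while 2 are predicted ones. Nrgn, a calmodulin-binding protein best known from neurons, was by far the most abundant, with 1131 and 1074 CPM in libraries 1 and 2. It stood at 521 and 224 CPM in CD122-T-bet-, at 571 and 449 in T-bet int and at 2.12 and 4.28 in T-bet high cells. Its log2 ratios were 1.57 (1.41 to 1.74), 1.11 (0.98 to 1.24) and 8.28 (6.75 to 11.65), and it was no longer called over T-bet int cells without library 2 of those cells. After thinning, 68.8% of the cells of the population had an Nrgn transcript, against 22.4% of CD122-T-bet-, 45% of T-bet int and 0.68% of T-bet high cells.

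Receptors and signalling genes came next. Kit, the receptor of stem cell factor, stood at 102 and 146 CPM, against 12.4 and 2.01 in CD122-T-bet-, 51.5 and 52.2 in T-bet int and 2.12 and 0 in T-bet high cells. Tnfrsf9, the co-stimulatory receptor 4-1BB, stood at 144 and 163 CPM, against 47.5 and 68.5, 51.5 and 28.5, and 6.36 and 25.7. Prr5l, which binds the kinase complex mTORC2, stood at 137 and 115 CPM, against 12.4 and 2.01, 48.5 and 39.5, and 2.12 and 0. In each of the 3 genes the lower library of the population lay at more than the higher library of any other. Over T-bet int cells, the nearest population for Kit and Prr5l, their log2 ratios were 1.23 (0.83 to 1.67) for Kit and 1.51 (1.09 to 1.98) for Prr5l, while for Tnfrsf9 the smallest ratio was the 1.39 (0.97 to 1.84) over CD122-T-bet- cells. Kit lost its call without library 2 of the population and Prr5l without library 1.

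Gsta4, a glutathione transferase that clears products of lipid peroxidation, stood at 135 and 174 CPM, against 24.8 and 0 in CD122-T-bet-, 45.5 and 37.9 in T-bet int and 4.24 and 4.28 in T-bet high cells. With Tnfrsf9 it kept its call above all 3 under 21 of 23 alternatives, and with each of the 8 libraries left out. Egr2, a zinc finger factor induced by T cell receptor signals, was scarcer, with 56.8 and 83.6 CPM, and its log2 ratios were 1.54, 1.47 and 5.04 over CD122-T-bet-, T-bet int and the T-bet high cells. It was seen in 6.45% of thinned cells, against 4.02%, 4.09% and 0.68%, and it lost its call without either library of the population and without library 2 of CD122-T-bet- cells.

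The other 6 named genes with Pdcd1 aside were Bmyc, of the Myc family, Ift80, of the transport along cilia, Klf9, a Krüppel-like factor, Marcksl1, an actin regulator, Hmgxb4, an HMG box protein, and Gnpnat1, of the hexosamine pathway. Their smallest log2 ratio over the 3 comparisons ran from 1.01 for Gnpnat1 to 1.47 for Bmyc. Ift80 differed between the libraries of the population itself, with 117 and 247 CPM, and was lost without library 2. Bmyc, Klf9, Hmgxb4 and Gnpnat1 were lost without either library of the population and Marcksl1 without library 2. Further libraries decided some of them: CD122-T-bet- library 1 for Marcksl1, T-bet int library 2 for Hmgxb4, and library 1 of T-bet int and of T-bet high cells for Gnpnat1. Scaling ended calls as well: relative to the median of all genes 11 of the 15 remained, without Gnpnat1, Hmgxb4 and Marcksl1 among named genes, and Hmgxb4 and Marcksl1 were also lost with the genes for low-quality cells left out of the total. Over all libraries left out in turn, the number of genes above all 3 ranged from 7, without library 2 of the population, to 19, and it was 9 without library 1. Some of the genes lost without a library of the population were lost to the minimum of transcripts alone.

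**Figure D2:**
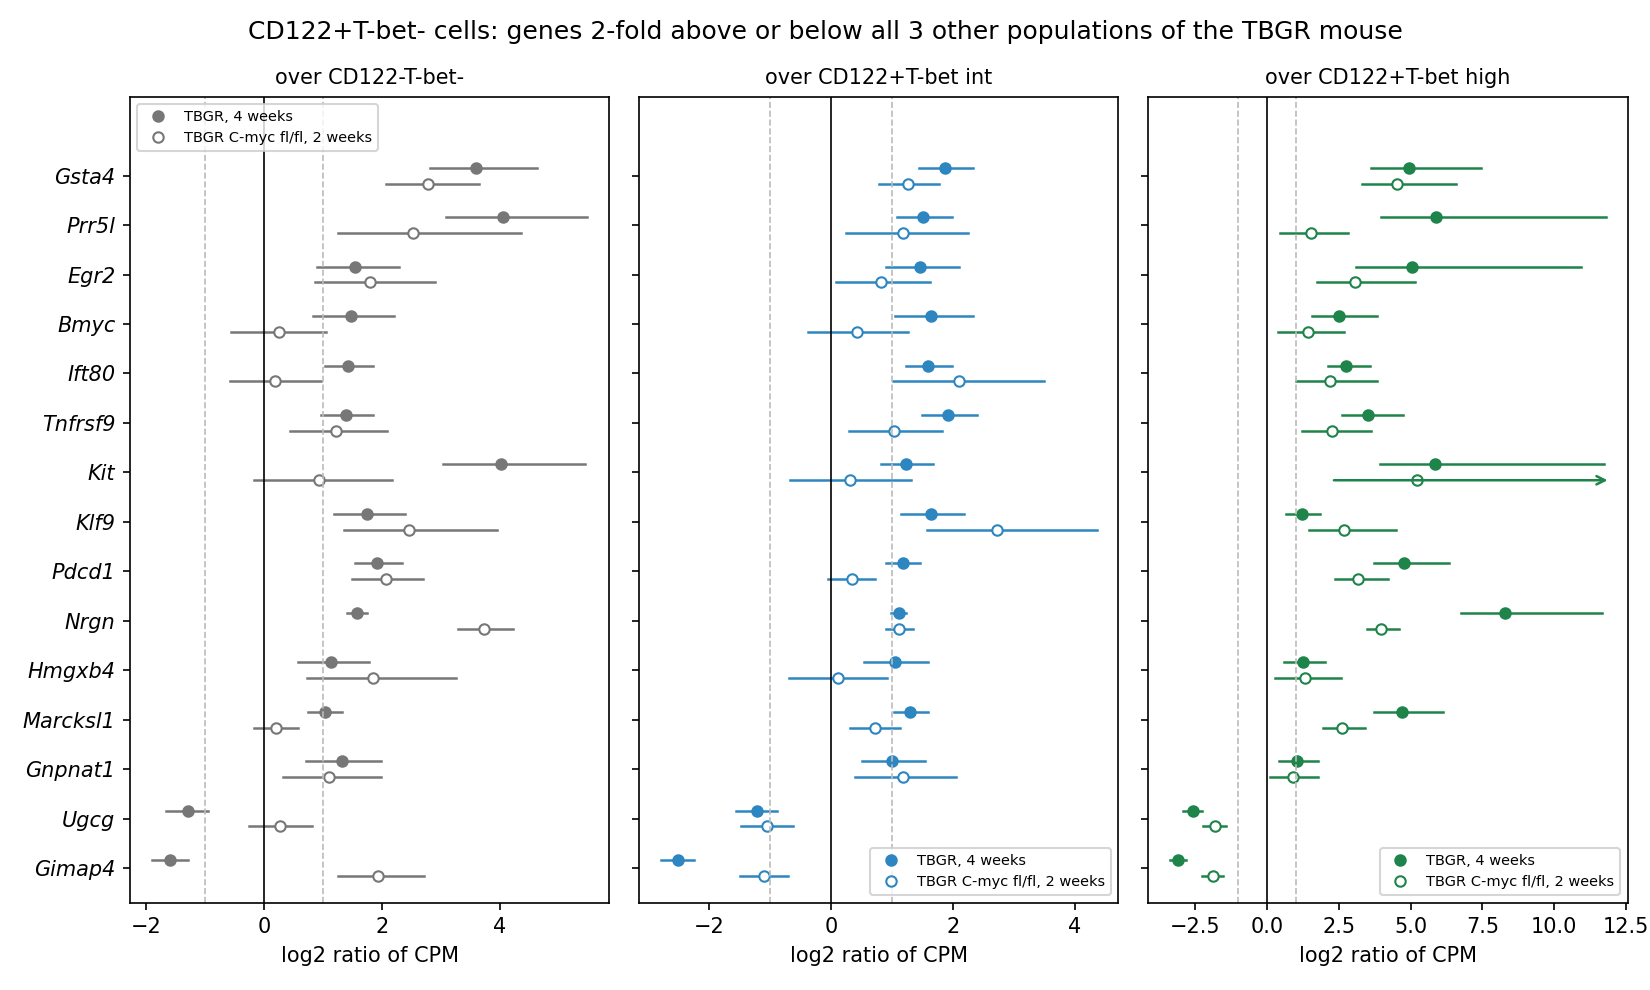
Log2 ratio of CD122+T-bet- cells over each of the 3 other populations for the named genes called above or below all 3, filled for the TBGR mouse and open for the C-myc fl/fl mouse, with 95% intervals as lines and an arrow where there is no upper limit. In the TBGR mouse Nrgn has the largest ratio over T-bet high cells, 8.28, and Gimap4 and Ugcg lie below 0 in all 3 panels.

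The 2 genes below all 3 were Gimap4, a GTPase linked to lymphocyte survival, and Ugcg, the enzyme that makes glucosylceramide. Gimap4 stood at 85.1 and 98 CPM in the population, 304 and 246 in CD122-T-bet-, 555 and 481 in T-bet int and 870 and 591 in T-bet high cells. It was seen in 17.2% of the thinned cells, against 40.2%, 67.3% and 73.5%, so that its lowest point lay in CD122+T-bet- cells. Ugcg stood at 72.2 and 83.6 CPM, against 242 and 141, 174 and 185, and 492 and 411, with log2 ratios of -1.29 (-1.65 to -0.95), -1.21 (-1.55 to -0.88) and -2.58 (-2.90 to -2.27). Leaving out library 1 of CD122-T-bet- cells left 1 gene below all 3.

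**Figure D3:**
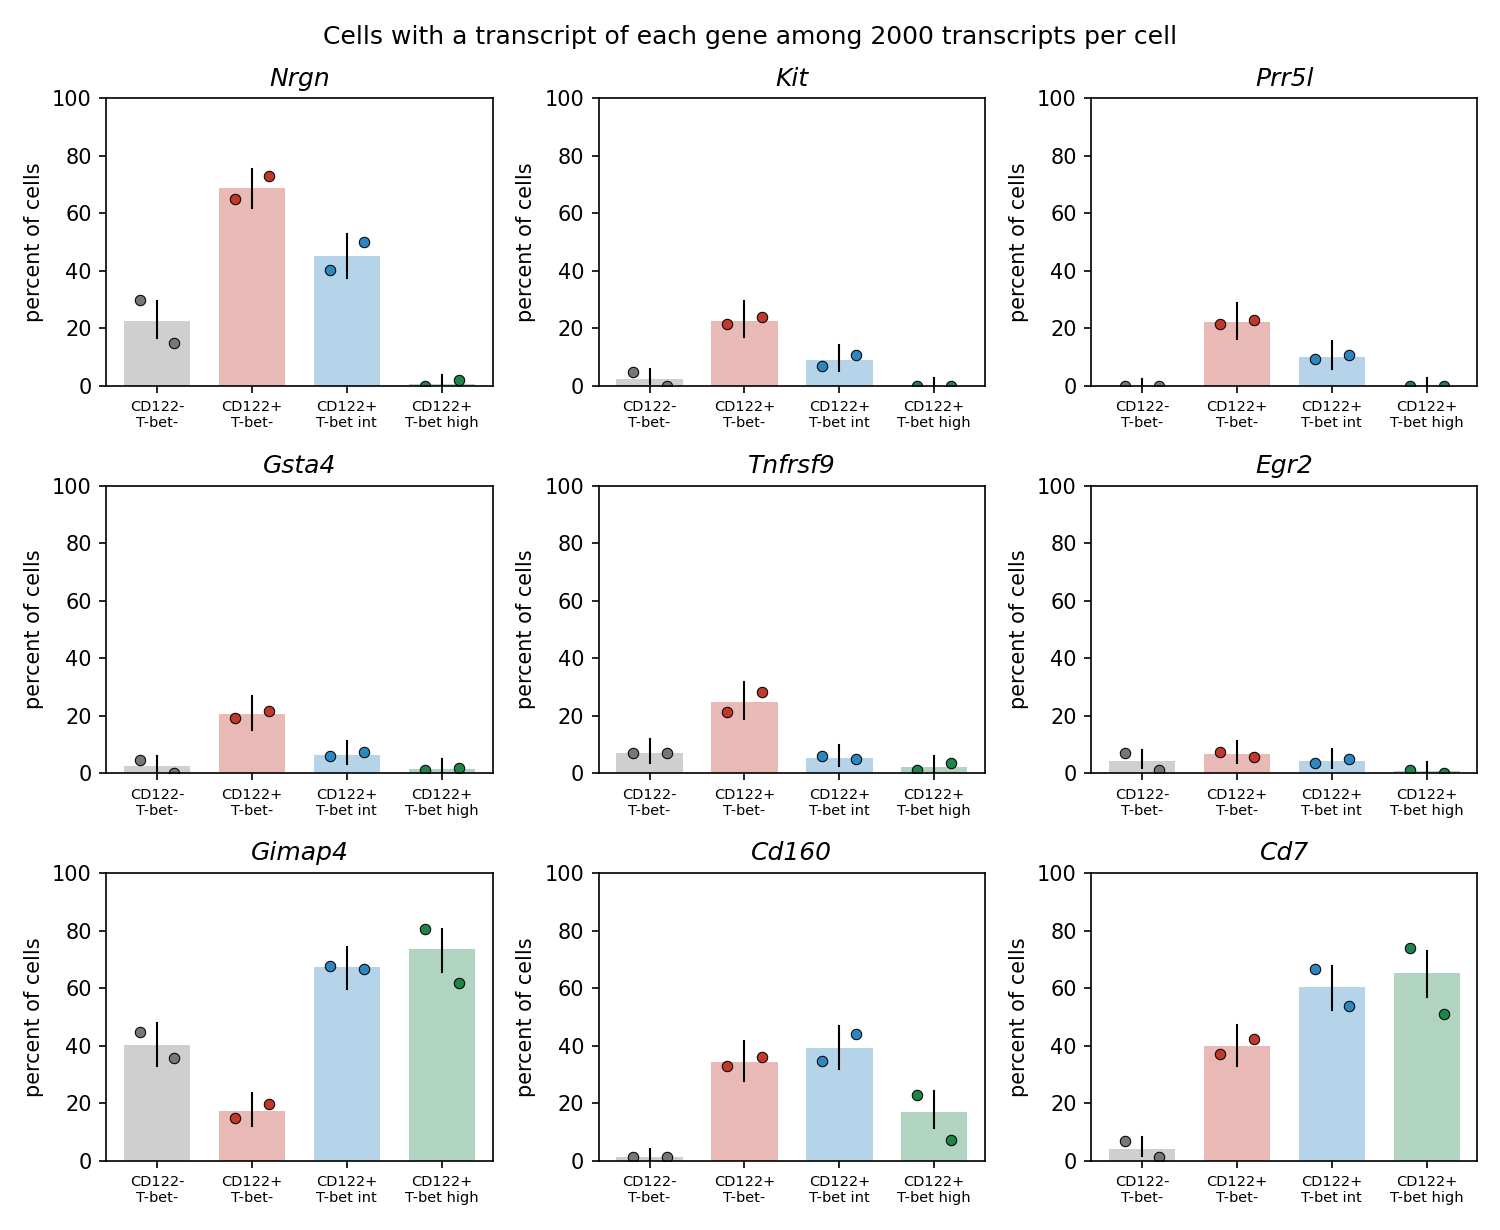
Percent of cells with a transcript after thinning to 2000, for 9 genes in the 4 sorted populations. Bars are both libraries together, points the single libraries and lines 95% binomial intervals: Nrgn, Kit, Prr5l, Gsta4 and Tnfrsf9 are seen in the largest share of CD122+T-bet- cells and Gimap4 in the smallest.

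The widest differences were those to T-bet high cells, and they run through genes of immature and of mature T cells. Sox4, an HMG box factor of thymocytes, stood at 504 and 466 CPM in the population and at 0 and 4.28 in T-bet high cells, a log2 ratio of 7.84 (5.94 to 13.73). Emb, which escorts lactate transporters to the membrane, stood at 252 and 294 CPM against 0 and 0, at least 63.8-fold higher. Blk, a Src family kinase, was at least 21-fold higher than in T-bet high cells and stood at 115 and 60.5 CPM. Tcf7, which encodes TCF-1, and Lef1, its relative, were called above these cells with log2 ratios of 3.03 (2.61 to 3.50) and 1.51 (1.15 to 1.91). Tox, a factor of developing and chronically stimulated T cells, had 2.37 (1.85 to 2.98), and Myb, of progenitors, 3.85 (2.48 to 6.37). In the list of T lineage factors, 6 of the 16 genes considered were above and 3 below, against 10.5% and 6% of all genes, and the median log2 ratio over measured members was 0.17, or -0.12 without library 1 of the population, against 0.14 for all genes.

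Many NK receptor genes of T-bet high cells were near absent in the population. Klrb1a, itself scarce in T-bet high cells, and Klra1 were present. Klrc1, an NKG2 receptor chain, was at 0 and 0 CPM against 344 and 343 in T-bet high cells, at least 168-fold lower. Klrd1, which encodes CD94, the partner of the NKG2 chains, stood at 2.58 and 1.44 CPM against 624 and 433, and against 330 and 310 in T-bet int cells. Klrk1 had 1 transcript in the population and Klrc2 also 1, with log2 ratios over T-bet high cells of -9.09 (-14.98 to -7.18) and -8.25 (-14.14 to -6.33). Of 10 NK receptor genes considered against T-bet high cells, 8 were below, against 6% of all genes, and 1, Klrb1a, above, against 10.5%. All 8 met the minimum of transcripts only through T-bet high cells. Over the 13 measured members 12 were lower, with a median of -6.73, or -5.65 with genes at 0 set to their bound. Against T-bet int cells 4 of 5 were below (Klrd1, Klra1, Klra7 and Klra10), against 2.42% of all genes, 3 of them with the minimum met only by T-bet int cells, and 11 of 11 measured were lower, with a median of -2.99, or -2.69 at the bound. Against CD122-T-bet- cells both genes considered, Klrb1a and Klra1, were above, against 11.1% of all genes, and met the minimum only through the population, but only 5 members were measured and the median of 4.46 becomes 2.36 at the bound.

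The cytotoxic genes measured were all lower than in T-bet high cells, and most were lower than in T-bet int cells. Against CD122-T-bet- cells they went both ways, with 6 of 8 measured higher and 2 lower. Gzmb, the gene of granzyme B, had 3.87 and 0 CPM against 1063 and 767 in T-bet high cells, a log2 ratio of -8.66 (-11.17 to -7.33) from 3 transcripts. Nkg7, a protein of cytotoxic granules, stood at 95.5 and 67.8 CPM, above the 0 and 22.1 of CD122-T-bet- cells and below the 456 and 384 of T-bet int cells. All 11 cytotoxic genes measured were lower than in T-bet high cells and 9 of 10 lower than in T-bet int cells, with medians of -5.37 and -2.29. Called below were 8 of 8 considered, against 6% of all genes, and 4 of 5 (Ccl5, Xcl1, Nkg7 and Ly6c2), against 2.42%, most of which met the minimum of transcripts only through the other population. Against CD122-T-bet- cells Nkg7 and Ctsw were above and Gzma below, of 3 considered, against 11.1% and 2.60% of all genes. Gzma stood at 7.74 and 1.44 CPM, against 33.1 and 286 in CD122-T-bet- cells. It was at 4.55 and 1.58 CPM in T-bet int and 240 and 210 in T-bet high cells.

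The homing genes split by direction. Cxcr3, a chemokine receptor, was at 0 and 0 CPM against 297 and 231 in T-bet high cells, at least 135-fold lower, and Cxcr6 stood at 68.4 and 70.6 CPM, above the 20.7 and 0 of CD122-T-bet- cells and below the 195 and 150 of T-bet int cells. Ccr9, which guides cells in the thymus and to the small intestine, stood at 95.5 and 46.1 CPM against 1203 and 1496 in CD122-T-bet- cells, and against 4.24 and 17.1 in T-bet high cells. S1pr1, the receptor for leaving the thymus, stood at 111 and 98 CPM, against 80.6 and 56.4, about 190 and 172, and 8.49 and 12.9. Itga4 and Itgb7, the chains of the gut-homing integrin α4β7, were both called above CD122-T-bet- cells, at 1.87 (1.55 to 2.21) and 1.26 (0.86 to 1.69). The population thus held intermediate or mixed levels of these genes. In all, 4 of 12 homing genes were above and 3 below CD122-T-bet- cells, against 11.1% and 2.60% of all genes. Of 12 none was above and 2 below T-bet int cells, against 2.78% and 2.42%, and of 14, 4 were above and 8 below T-bet high cells, against 10.5% and 6%. Some called genes met the minimum of transcripts only through the population where they were high. Against T-bet high cells these include Cxcr3, with 0 transcripts against 194, and Ccr9, with 106 against 6. Over the 19 members measured there, 7 were higher and 12 lower.

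Some genes of conventional T cells and of selection were among the 69 below CD122-T-bet- cells. Satb1, a chromatin organiser of thymocytes, stood at 405 and 405 CPM against 2911 and 2241, a log2 ratio of -2.67 (-2.80 to -2.54). Itm2a, a membrane protein of positive selection, stood at 111 and 136 CPM against 1294 and 906. Zbtb7b, which encodes ThPOK of CD4 T cells, stood at 14.2 and 10.1 CPM against 141 and 94.6, and Bcl11b and Bach2 were below as well, at -1.75 (-1.93 to -1.58) and -1.27 (-1.59 to -0.95). Runx3, of cytotoxic lineages, Klf2 and Maf were the 3 lineage factors above, and 4 of 16 considered were below, against 11.1% and 2.60% of all genes, with a median of -0.54 for the list against 0.26 for all genes. Among the largest ratios upward, Cd7, an immunoglobulin superfamily receptor, stood at 293 and 470 CPM against 22.7 and 6.04. Cd160, a receptor of cytotoxic and intraepithelial cells from the checkpoint list, stood at 184 and 223 CPM against 8.27 and 16.1. After thinning, 34.4% of the cells had Cd160, against 1.15% of CD122-T-bet- cells.

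Against T-bet int cells, fewer genes differed. Cd24a, a surface protein of immature thymocytes, stood at 125 and 197 CPM against 13.6 and 19, a log2 ratio of 3.26 (2.65 to 4.01), and Sox4 at 2.03 (1.78 to 2.30). Mex3a, an RNA-binding protein, stood at 76.1 and 104 CPM against 15.2 and 20.6, and Tubb2a, a tubulin, at 67.1 and 89.4 against 21.2 and 12.6. Sidt1, a membrane protein that carries nucleic acids, stood at 25.8 and 10.1 CPM against 174 and 138, and Fcer1g, a signalling adaptor of NK receptors, at 89 and 82.2 against 318 and 315. Of the 2 double positive thymocyte markers considered, Cd24a was thus above, against 2.78% of all genes. Cd8a, a co-receptor chain, was below, against 2.42%, at 23.2 and 21.6 CPM against 66.7 and 120. Each met the minimum of transcripts only through the population where it was high, as Cd24a did with 234 against 21.

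Factors of T cell receptor signalling did not move as 1 group. Nr4a1, the gene of Nur77, stood at 258 and 399 CPM, below the 449 and 451 of CD122-T-bet- cells by less than the limit for a call, and above the 97 and 133 of T-bet int cells. Nr4a3 was called below CD122-T-bet- cells, at 52.9 and 53.3 CPM against 118 and 115, as was Nfkbid, a regulator of NF-κB. Nr4a2 and Egr2 were above these cells, so 2 of 11 considered were above and 2 below, against 11.1% and 2.60% of all genes, and the median of 0.31, against 0.26 for all genes with at least 10 transcripts, turns to -0.03 when ratios are taken relative to the 0.34 of genes considered. Against T-bet int cells 3 of 9 were above (Nr4a1, Egr2 and Nfkb2), against 2.78% of all genes, and none below, with a median of 0.67. Against T-bet high cells 5 of 9 were above, against 10.5%, and none below, with a median of 0.38 against 0.14 for all genes. Some of these met the minimum of transcripts only through CD122+T-bet- cells, such as Egr2, with 102 against 1, and Egr1, with 253 against 30. Over the 13 members measured there, 10 were higher and 3 lower. Among immediate early genes, Fos and Zfp36 were above CD122-T-bet- cells and Per1 above T-bet int cells, of 14 considered each, against 11.1% and 2.78% of all genes. Against T-bet high cells Fos and Zfp36l1 were above, and Dusp1, Dusp2, Btg2, Zfp36l2 and Klf6 below, of 14, against 10.5% and 6%. Fos, a part of the AP-1 factor, stood at 290 and 274 CPM here, the highest of the 4 populations, and the part of cell handling in these genes was not tested.

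Checkpoint and co-stimulatory receptors gave 4 of 11 above CD122-T-bet- cells (Pdcd1, Cd160, Tnfrsf9 and Cd96), against 11.1% of all genes, and Cd5 and Cd6 below, against 2.60%. Some of these met the minimum of transcripts only through the population where they were high, such as Cd160, with 298 against 12. Over the 18 members measured in that comparison, 10 were higher and 8 lower. The median of this list, 0.12 against 0.26 for all genes with at least 10 transcripts, turns to -0.22 relative to the 0.34 of genes considered, and 3 of 11 were above and none below in each of the other comparisons, against 2.78% above T-bet int and 10.5% above T-bet high cells. Slamf6, a receptor of the SLAM family, was the third gene above T-bet high cells, at 3.84 (2.87 to 5.27). Among Ikaros, Id and E proteins, Ikzf2 and Id3 were above CD122-T-bet- cells, of 5 considered, against 11.1% of all genes. Both were also above T-bet high cells, of 5, against 10.5%. Id2, the partner of Id3 in restraining E proteins, was below T-bet int cells at -1.22 (-1.43 to -1.02), of 6, against 2.42%. It was below T-bet high cells as well, at -3.14 (-3.33 to -2.95), of 5, against 6%. Medians of this list lay near those of all genes. They were 0.22 over CD122-T-bet- cells against 0.26, -0.13 over T-bet int cells against 0.04, and 0.07 over T-bet high cells against 0.14. Among cytokine receptors and their signalling genes, Il2rb and Stat3 were above CD122-T-bet- cells, of 11, against 11.1% of all genes, none of 13 was called against T-bet int cells, and Il7r, Il18r1, Il18rap and Ifngr1 were below T-bet high cells. Il6st, the shared receptor chain of the IL-6 family, was above them, at 257 and 395 CPM against 12.7 and 17.1. Of genes of the T cell receptor complex, 1 of 19 was above and 1 below CD122-T-bet- cells, against 11.1% and 2.60% of all genes. None of 17 was called against T-bet int cells, against 2.78% and 2.42%, and 1 of 17 was below T-bet high cells, against 6%. Their medians were -0.25, with 17 of 22 lower, against 0.26 for all genes, then 0.19 against 0.04, and -0.25 against 0.14, the last turning to 0.20 without T-bet high library 1.

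**Figure D4:**
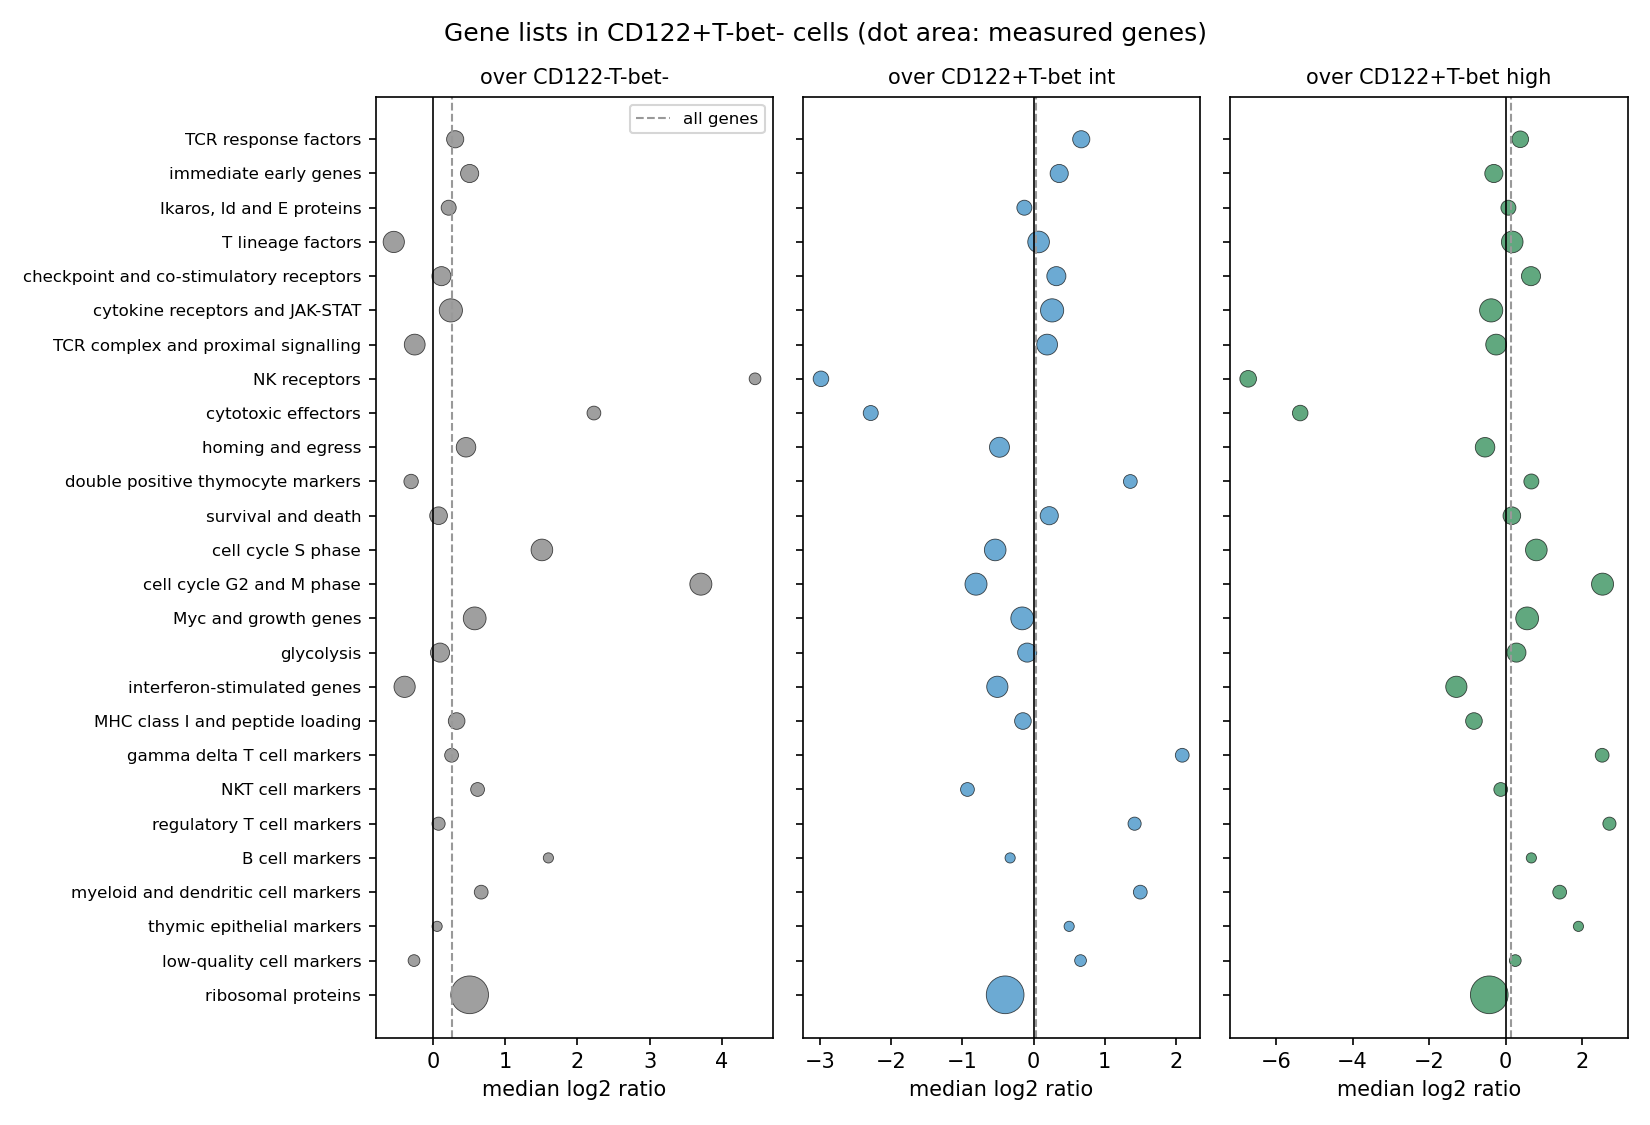
Median log2 ratio of each gene list in CD122+T-bet- cells over the 3 other populations, with the dot area for the number of measured genes and a line for the median of all genes. G2 and M phase genes lie at 3.71 over CD122-T-bet- cells, and NK receptors at -6.73 over T-bet high cells and, with 5 genes measured, at 4.46 over CD122-T-bet- cells.

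Genes of the G2 and M phase were higher than in CD122-T-bet- and T-bet high cells and mostly lower than in T-bet int cells. Of 25 measured G2 and M phase genes 24 were higher than in CD122-T-bet- cells and 25 higher than in T-bet high cells. Called above were 11 of 11 considered, against 11.1% of all genes, and 10 of 11, against 10.5%, most of which met the minimum of transcripts only through the population itself. The medians were 3.71 and 2.53, or 3.56 and 2.50 with genes at 0 set to their bound. Against T-bet int cells 4 of 18 were below, against 2.42% of all genes, and none above, with a median of -0.81 and 24 of 25 measured genes lower. Of S phase genes, 7 of 10 were above CD122-T-bet- cells, against 11.1% of all genes, and 1 of 10 above T-bet high cells, against 10.5%. Of 12 considered, 1 was below T-bet int cells, against 2.42%, where the median of -0.54 turns to 0.17 without cycling cells. Mki67, the gene of the proliferation marker Ki-67, stood at 353 and 259 CPM, against 14.5 and 6.04, 641 and 558, and 4.24 and 94.2. The T-bet high libraries lie far apart here, both below the population.

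A cell was taken as cycling if at least 5 of its 2000 thinned transcripts were from these lists. This held for 42 of 94 cells (44.7%) in library 1 and 37 of 92 (40.2%) in library 2, together 79 of 186, or 42.5% (95% interval 35.3 to 49.9). The share was 6.32% in CD122-T-bet-, 46.2% (38.6 to 54) in T-bet int and 10.9% in T-bet high cells. The limit is not a natural gap, since 26 cells had 4 such transcripts and 16 had 5. With a limit of 3 the share was 71.5%, and with 8 it was 24.2%, while T-bet int cells had 76% and 28.7%, T-bet high cells 33.3% and 2.04% and CD122-T-bet- cells 27.6% and 0.575%. At higher limits the population and T-bet int cells were farther apart, with 9.68% against 19.3% at 15 transcripts and 2.69% against 11.7% at 30.

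**Figure D5:**
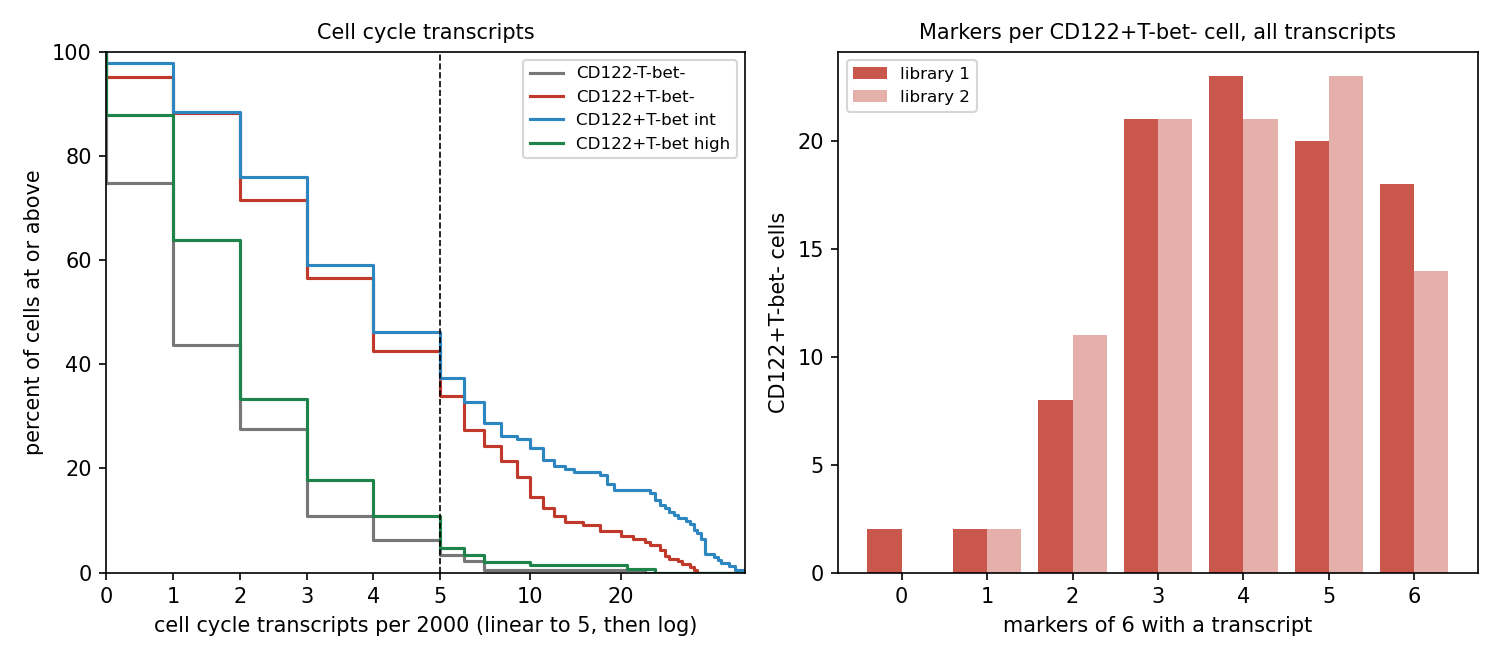
Left, percent of cells of each population at or above a number of cell cycle transcripts out of 2000, with the limit of 5 as a dashed line, where 42.5% of CD122+T-bet- cells lie. Right, number of CD122+T-bet- cells by how many of the 6 markers had a transcript, per library, with 86.6% at 3 or more.

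Cycling and other cells of the population were also compared outside the lists that define cycling. Of 1319 genes considered 46 (3.49%) were called above the other cells and 23 (1.74%) below. None of the 6 markers reached a 2-fold difference, but 5 had intervals without 0, and the median of all genes was 0.20. Log2 ratios of cycling over other cells were 0.71 (0.48 to 0.94) for Id3, 0.69 (0.25 to 1.15) for Klrb1a, 0.38 (0.08 to 0.69) for Pdcd1 and 0.38 (0.10 to 0.66) for Nr4a2. The intervals of Pdcd1 and Nr4a2 include that median, and Pdcd1 was at 243 against 248 CPM in library 1 and at 332 against 185 in library 2. Ikzf2 had -0.24 (-0.37 to -0.11) and Il2rb -0.02 (-0.31 to 0.27). Nrgn was higher by 0.98 without being called, and Kit was called below, at 82.5 and 67.6 CPM in cycling cells of libraries 1 and 2 against 124 and 214 in the others. Klra1 and, chosen after their values were seen, Stmn1, Ncapd2 and Lig1 were above, at 3.37, 1.81, 2.06 and 1.98. Cycling cells were deeper, with a median of 8077 and 7331 transcripts against 6639 and 6705, and held less Gm10800, at 71603 and 111065 CPM against 175714 and 162488, which raises the CPM of other genes. The part of both in these ratios was not tested. When cycling cells of all populations were left out, 8 genes lay above all 3 others, of which 6 were among the 15, and Pdcd1 and Egr2 were among those lost.

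Among cells of the population the gene with the highest ratio of variance to mean after thinning was Gm10800 in both libraries, at 136 and 101. With genes ordered by the worse of their ranks in the 2 libraries, it was followed among named genes by Malat1, a nuclear RNA, ranked 8 and 7, then Actb, Icos, Noct, Top2a, S100a4, Lrrc58 and Ptma. Genes ranked high in only 1 library are not among these names. The 50 most variable genes of each library shared 13, and 16 of the 50 in library 1 and 7 in library 2 had most of their transcripts in 1 cell. None of the 6 markers was among these 8 named genes.

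The libraries of the population differed from each other by a median absolute log2 ratio of 0.21 over 2614 genes. Over 2-fold apart were 28 genes, 22 higher in library 1 and 6 in library 2. Icos, a co-stimulatory receptor, stood at 479 CPM in library 1 and 120 in library 2, Lgals3 at 226 and 51.9, and Klra1 at 128 and 28.8. Foxp3, the factor of regulatory T cells, went the other way, with 18.1 and 104 CPM. A gene with such a spread cannot be given 1 level for the population.

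Markers of other cell types were looked for in both libraries. The B cell list summed to 186 and 174 CPM, with Ighm as its most abundant gene. Its 3 measured genes were higher than in CD122-T-bet- cells, with a median of 1.60, or 0.31 among genes with at least 100 transcripts. Ighm was the one gene considered and was below T-bet int cells, Cd22 stood at 38.7 and 44.7 CPM, Ms4a1, Igkc and Pax5 were at 0, and all 3 erythroid genes in the tables were at 0. Of the thymic epithelial list none was considered, Krt5 and Foxn1 were at 0 and Psmb11 was the most abundant at 39.5 CPM. The myeloid and dendritic list summed to 715 CPM in library 1 and 248 in library 2, with Cst3 as its most abundant gene and Itgax at 0. Of its 3 genes considered, Cst3 and Fcer1g were above CD122-T-bet- cells, Cd74 above and Fcer1g below T-bet int and the T-bet high cells, where the shares of all genes were 11.1% above the first, 2.78% and 2.42% above and below the second and 10.5% and 6% above and below the third.

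A single cell held much of the myeloid and dendritic list. It is in library 1, has 7698 transcripts and carries 277 of the 554 transcripts of the list in that library. The next highest cell there has 17, and the highest cell of library 2 has 18 of 172. Out of both libraries, the cell with 277 held 96 of the 131 transcripts of Cd74 (73.3%), the invariant chain of MHC class II. It also held 40 of 69 of H2-Aa and 36 of 56 of H2-Eb1. Chosen after their values were seen, Ccl22 and Fscn1, genes of activated dendritic cells, had 39 of 45 and 25 of 29 in it. The cell had 17 transcripts of Trbc1, 1 of Cd3e and none of Cd3g and Thy1, with 5 of Ikzf2, 2 of Id3 and none of Pdcd1, Nr4a2, Il2rb and Klrb1a. Cd74 was the only gene among those called above T-bet int or T-bet high cells with over 50% of its transcripts in 1 cell. Without this cell, an alternative chosen after seeing the data, Cd74 was no longer called against either, and the counts above were 291, 75 and 281 against CD122-T-bet-, T-bet int and the T-bet high cells. Whether this well held a second cell was not tested.

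Markers of other T cells were present. The list of regulatory T cells summed to 188 and 362 CPM, with Izumo1r as its most abundant gene and the one gene considered, called below CD122-T-bet- cells. Its median was 1.42 over T-bet int cells, and 2.71 over T-bet high cells, or -0.75 among genes with at least 100 transcripts. The γδ T cell list summed to 1005 and 872 CPM, with Tcrg-C4 as its most abundant gene. Of the γδ genes considered, 1 of 4 (Tcrg-C4) was above and 1 (Sox13) below CD122-T-bet- cells, 1 of 3 (Blk) above T-bet int cells, and of 3, Blk above and Tcrg-C1 below T-bet high cells, against 11.1%, 2.60%, 2.78%, 10.5% and 6% of all genes in this order. Medians of this list were 2.09 over T-bet int cells, and 2.52 over T-bet high cells, which becomes 1.21 with genes at 0 set to their bound and -0.77 among genes with at least 100 transcripts. The NKT cell list summed to 698 and 231 CPM, with Icos as its most abundant gene, and 2 of its 3 genes considered were called below T-bet high cells, against 6% of all genes, and none in the other comparisons. The paper sorted TCRαβ+ NK1.1- cells, a gate meant to leave out γδ cells. From CD1d tetramer staining of thymocytes it put potential NKT precursors at a small share of such cells. Whether other T cells were among the members was not tested.

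The genes above all 3 populations were then looked up in the C-myc fl/fl mouse, where 122 cells of the population, and 120 (CD122-T-bet-), 116 (T-bet int) and 112 (T-bet high) of the others, passed, in 4 libraries each. In that mouse T-bet- cells of both kinds share libraries, and T-bet int and the T-bet high cells share others. Of the 15 genes, 14 had a log2 ratio above 0 against all 3, and 11 lay above the medians of all genes in all 3. Only 4 of the 15, Nrgn, Gsta4, Marcksl1 and Pdcd1, had the 100 transcripts asked of genes considered. These 4 were above 0 against all 3, where 29.2% of 1188 genes with that minimum were, and 2 of them, Nrgn and Gsta4, were 2-fold or more above all 3, against 0.421%. Klf9, Prr5l and Tnfrsf9 reached 2-fold in all 3 with 38, 29 and 44 transcripts in the population. With the libraries also required to be apart, only Nrgn passed in all 3. This is a description of another mouse of another age, and whether the size of a ratio differed between the mice was not tested.

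Nrgn stood at 636, 788, 672 and 615 CPM in libraries 1 to 4 of that mouse, with log2 ratios of 3.72, 1.12 and 3.98 over CD122-T-bet-, T-bet int and the T-bet high cells. Within each of the 4 libraries that hold both T-bet- populations its ratio over CD122-T-bet- cells was between 3.12 and 5.35, where library and population are not confounded, and that of Gsta4 was between 2.22 and 5.93. For 6 named genes an interval included 0: over CD122-T-bet- cells for Kit at 0.93 (-0.17 to 2.17), Bmyc at 0.25 (-0.55 to 1.05), Ift80 at 0.19 (-0.57 to 0.96) and Marcksl1 at 0.20 (-0.17 to 0.57). Over T-bet int cells this held for Kit at 0.32 (-0.67 to 1.32), Bmyc at 0.43 (-0.38 to 1.26), Hmgxb4 at 0.12 (-0.69 to 0.92) and Pdcd1 at 0.34 (-0.04 to 0.73). The median of all genes was 0.63, -0.08 and 0.12 in these comparisons. Of the 2 genes below all 3 in the TBGR mouse, both had negative ratios over T-bet int and the T-bet high cells, Gimap4 at -1.09 and -1.87 and Ugcg at -1.04 and -1.80. Over CD122-T-bet- cells both were positive, 1.94 (1.26 to 2.71) for Gimap4 and 0.28 (-0.25 to 0.82) for Ugcg, and within the 4 libraries Gimap4 was between 1.10 and 5.05.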

How the data were processed

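Single cells of the TBGR mouse had been sorted into wells and read by CEL-Seq2 with UMIs of 6 bases. Per the submitters' processing notes reads were prepared with bcl2fastq 2.17.1.14 and aligned with bwa 0.6.2-r126. The authors deposited estimated (expected) transcript counts, corrected for UMIs drawn more than once and not normalized, and every value was checked to convert back to a whole number of UMIs. Values were rounded to whole transcripts. Without mitochondrial genes and spike-ins, wells with at least 2000 transcripts were kept, and barcodes without a cell were set aside. Transcripts were summed per library and population and scaled to 1000000 (CPM). Log2 ratios used 0.5 added transcripts, with exact 95% binomial or Poisson intervals. A gene was called with at least 100 transcripts in either population, a 2-fold difference and the libraries of both apart. Some called genes, in the lists as well, met this minimum only through the population where they were high. Gene lists were described over members with at least 10 transcripts. Cells were thinned to 2000 transcripts with a fixed seed for shares, variation and cycling.

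The genes named are the 6 markers, the 8 largest ratios per direction and comparison, up to 15 genes above and 10 below all 3, members of the lists, the 8 most variable genes and the 5 farthest apart between libraries in each direction. Predicted genes are not named, Gm10800 excepted. The members, markers and lists were chosen with earlier results of these data known. Alternatives changed the minimum per cell and per gene, the fold, the scaling, the added count, rounding, thinning, cycling cells and each library. The calculations were tested on simulated data. Python 3.11.15, numpy 2.4.6, pandas 2.3.3, scipy 1.17.1 and matplotlib 3.10.9 were used. Libraries of the third genotype were not analysed here.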

Additional observations from a re-analysis of the deposited data

Results flagged for a closer look

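Gsta4 stood at 69.1 CPM in CD122+T-bet- cells of library 1 of the C-myc fl/fl mouse, far below the other 3 libraries, which lay between 176 and 183. The rule that singled it out does so by chance in about 1 in 20 groups.

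Gimap4 had a log2 ratio of 1.94 over CD122-T-bet- cells in the C-myc fl/fl mouse and of -1.59 in the TBGR mouse, with every library of each mouse on its own side. The difference between the mice was not tested.

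Barcodes without a cell carried signal that enters no comparison. They held 3296 transcripts in library 1 and 3865 in library 2 of the CD122+T-bet- cells, of which Gm10800 made up 13% and 16.5%.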

How the results depend on the processing

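No log2 ratio of a marker changed sign, while 60 of 1261 medians of gene lists did. No paired analysis was run, because the results come from no test. In the C-myc fl/fl mouse both T-bet- populations share libraries, and ratios within those libraries are given as a description only. Counts of genes are given in the order above T-bet high, above T-bet int, above CD122-T-bet-, above all 3, then below T-bet high, below T-bet int, below CD122-T-bet- and below all 3.

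With every cell thinned to 2000 transcripts the counts were 47, 11, 48 and 1 above and 73, 19 and 32 below, from fewer transcripts. Without cycling cells 96, 39, 96 and 8 genes were above, and 41 below T-bet int cells. With at least 30 transcripts for a gene, the counts were 878, 364, 958 and 67 above and 423, 208, 217 and 9 below. With at least 300 transcripts they were 64, 13, 79 and 3 above and 55, 19, 27 and 0 below. With no minimum they were 2552, 1577, 2304 and 368 above and 1087, 730, 1199 and 53 below. At 1.5-fold they were 615, 259, 743 and 59 above and 313, 274, 134 and 5 below.

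Relative to the median of all genes considered, 162 genes were above and 123 below CD122-T-bet- cells. With the 5 genes of the list for low-quality cells left out of the total, chosen after seeing the data, these were 1.9e2 (rounded) and 108.

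Without library 1 of the population 33 genes were above and 111 below T-bet int cells, against 78 and 68 with both libraries. Without library 2 of the population 23 were above and 67 below. Leaving out a library of the population takes genes high in it below the minimum of transcripts, so the balance cannot be read as resting on that library. The part of the minimum was not tested. With each library left out in turn, genes above T-bet high cells ranged from 102 to 439, above T-bet int from 23 to 95, above CD122-T-bet- from 113 to 448 and above all 3 from 7 to 19. Genes below T-bet high cells ranged from 100 to 170, below T-bet int from 35 to 111, below CD122-T-bet- from 49 to 85 and below all 3 from 1 to 3.

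With a limit of at least 3 of 2000 transcripts for a cycling cell, the shares were 71.5% in CD122+T-bet-, 27.6% in CD122-T-bet-, 76% in T-bet int and 33.3% in T-bet high cells. With at least 8 they were 24.2%, 0.575%, 28.7% and 2.04%.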

Other observations

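Genes induced by interferon were lower in CD122+T-bet- cells than in T-bet high cells. Of 9 considered, 5 were called below T-bet high cells, against 6% of all genes, and none above, with a median log2 ratio of -1.29 against 0.14 for all genes. Ly6e, a membrane protein induced by interferon, stood at 921 and 649 CPM in libraries 1 and 2 of the population and at 2964 and 2257 in T-bet high cells, and Gbp7, a guanylate-binding protein, at 107 and 131 against 458 and 330. Ly6a, the gene of Sca-1, was also called above CD122-T-bet- cells, at 94.2 and 51.9 CPM against 8.27 and 12.1. Genes of MHC class I followed the same direction, with H2-D1, H2-Q6 and B2m below T-bet high cells, of 9 considered, against 6% of all genes. B2m, the light chain of MHC class I, stood at 1998 and 1860 CPM, between the 1170 and 946 of CD122-T-bet- cells and the 4071 and 4279 of T-bet high cells.

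Bcl2, which blocks cell death, stood at 530 and 836 CPM in the population. No survival gene was called in any of the 3 comparisons, of 5 considered in each. The shares of all genes above and below were 11.1% and 2.60% against CD122-T-bet- and 2.78% and 2.42% against T-bet int cells. They were 10.5% and 6% against T-bet high cells, and 5 genes are too few to set 0 apart from such shares. Myc and growth genes had a median of 0.58 over CD122-T-bet- cells, against 0.26 for all genes, and of 0.56 over T-bet high cells, against 0.14. Over T-bet int cells it was -0.16 against 0.04, and 0.08 with every cell thinned. Of these genes, Nop58, of ribosome assembly, was called above CD122-T-bet- cells, of 19 considered, against 11.1% of all genes, none of 20 was called against T-bet int cells, and Ran, Tfrc and Cdk4 were above T-bet high cells, of 19, against 10.5%. Foxp3, the factor of regulatory T cells, was seen in 11 cells of library 1 and 31 of library 2, and had fewer than the 100 transcripts needed to be considered. Trdc, the constant region of the δ chain, stood at 52.9 and 79.3 CPM, against 66.1 and 109 in CD122-T-bet- cells. It stood at 6.06 and 12.6 in T-bet int and 0 and 0 in T-bet high cells. The paper sorted TCRαβ+ cells, a gate meant to leave out γδ cells, and whether any were among the members was not tested.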
